A study of Mus musculus with 8 samples.

Results

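The genes described here are 10 components of the neuronal axon cytoskeleton, chosen by name: Nefl, Nefm, Nefh, Ina, Prph, Tubb3, Gap43, Stmn2, Mapt and Map1b. Each name matched 1 row of the deposited tables, so 10 of 54532 listed genes were taken, and all 10 passed the filter on low counts. RNA sequencing of mouse retina was deposited as 8 libraries, 4 labelled sIVs and 4 labelled PBS, with replicates numbered 1, 3, 4 and 5 in each group. The series title spells out small intracellular vesicles, to which sIVs corresponds, and also names retinal neuroprotection; the PBS libraries, named after what is usually phosphate-buffered saline, are described as the control. The sources used here do not give strain, age, any injury, dose, route or time. The labels call the libraries biosamples without saying that they came from separate animals, so p-values measure only the spread between these libraries, which may be technical.

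Neurofilaments are the intermediate filaments of neurons. The light, medium and heavy chains and alpha-internexin co-assemble into them in the central nervous system, and peripherin takes part mainly in neurons that project to the periphery. Microtubules, built from tubulins and bound by proteins such as tau and MAP1B, run beside them. In the retina, neurofilament-rich axons belong above all to ganglion cells, whose axons leave in the optic nerve, and neurofilament light chain in body fluids is widely used as a marker of axonal damage.

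The libraries held 13803958 to 16622259 counts. The retina label was met by rod markers (8 of 8 tested, summing to 34786 to 57406 CPM in sIVs and 29651 to 56350 CPM in PBS retinas) and by ganglion cell markers that were not among the 10 genes (13 of 13 tested). CPM are counts scaled to a common library size after TMM scaling. The ganglion cell markers summed to 683 to 873 CPM in sIVs and 693 to 734 CPM in PBS retinas, with the 873 CPM in sIVs replicate 4 and at most 734 CPM in any other library. In that library Thy1 (275 CPM, against at most 171 in the others) and Sncg (149 CPM, against at most 71.4) were the highest of the 8. So were Rbpms (53.2 CPM, against at most 50.1), Rbpms2 (45.6 CPM, against at most 33.3), Pou4f3 and Isl2. By contrast, Slc17a6, Jam2, Ebf3 and Eomes of the same list were the lowest of the 8 there. In whole retina, fewer ganglion cells and less RNA per ganglion cell cannot be told apart. sIVs replicate 4 stood apart from the other libraries: it was the highest or the lowest of the 8 for 71% of the 17004 genes tested, it held 458 summed CPM of pigment epithelium and melanocyte markers against at most 74.9 in any other library, and its short genes were high and its long genes low. Of that marker list Rgr (153 CPM), Ttr (150 CPM), Rpe65 (60.2 CPM), Rdh5, Dct and Lrat were the highest of the 8 there. The melanin genes Tyr, Tyrp1, Pmel and Mlana were not, each being higher in sIVs replicate 5, and Best1 was at 0.131 CPM. Because sIVs replicate 4 stood apart, the fold changes of the 10 genes and the medians of the related lists are also given without it.

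Where reads of these genes can be assigned matters for Nefl and Nefm, which lie side by side on chromosome 14. In GENCODE M21 (GRCm38), the last exon of the transcript Nefm-202 (chr14:68082590-68084970, minus strand) runs across the first exon of Nefl (chr14:68083863-68085009, plus strand). They share 1108 bases, which is 32.8% of the exon bases of Nefl and 19.2% of those of Nefm. The libraries mark strand, but strand use in the counting is not stated; without it, reads from these bases cannot be told apart.

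Tubulin genes resemble each other, which bears on Tubb3. Of the 1867 different 31-base stretches in Tubb3 transcripts, 3.21% also occur in transcripts of other genes. The longest coding run shared with another tubulin gene was 47 bases, with Tubb6 (chr8:123421569-123421615, plus strand), which is shorter than the 150 bp reads.
Tubb3: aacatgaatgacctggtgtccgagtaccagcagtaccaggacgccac

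For the other genes the shared part was 13.3% in Ina, all of it with Nt5c2 on the opposite strand, 1.38% in Stmn2, 0.543% in Prph, 0.00633% in Map1b and 0% in Nefh, Gap43 and Mapt.

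Of the 10 genes, 4 matched the RefSeq promoter table (GRCm38.p6): Ina, Prph, Tubb3 and Map1b. They are shown because they include the lowest gene of the set (Prph), the steadiest (Ina) and a pair whose levels lay on opposite sides in sIVs replicate 4 (Tubb3 and Map1b). Each line gives bases before the start site, with capitals for the motifs searched on both strands. The TATA box was searched as TATAAA. The CCAAT box was searched by those letters, the GC box as GGGCGG, the E box as CAGCTG and the cyclic AMP response element as TGACGTCA. No match in these lines overlaps another. The Tubb3 line stops at the gene start of the deposited table.
Ina (chr19:47014431-47014680, plus strand): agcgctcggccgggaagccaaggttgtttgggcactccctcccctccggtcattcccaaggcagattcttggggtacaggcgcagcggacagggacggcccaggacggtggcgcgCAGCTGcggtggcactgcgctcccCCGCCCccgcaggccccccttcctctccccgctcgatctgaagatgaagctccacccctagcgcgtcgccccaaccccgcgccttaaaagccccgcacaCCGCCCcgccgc
Prph (chr15:99054924-99055173, plus strand): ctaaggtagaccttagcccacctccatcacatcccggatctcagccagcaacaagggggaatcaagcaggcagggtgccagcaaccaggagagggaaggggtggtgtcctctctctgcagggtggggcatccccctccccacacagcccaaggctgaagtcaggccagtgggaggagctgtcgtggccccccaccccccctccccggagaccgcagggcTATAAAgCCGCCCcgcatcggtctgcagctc
Tubb3 (chr8:123411303-123411423, plus strand): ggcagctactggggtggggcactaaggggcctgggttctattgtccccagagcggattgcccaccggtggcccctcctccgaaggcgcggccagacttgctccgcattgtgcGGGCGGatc
Map1b (chr13:99516603-99516852, minus strand): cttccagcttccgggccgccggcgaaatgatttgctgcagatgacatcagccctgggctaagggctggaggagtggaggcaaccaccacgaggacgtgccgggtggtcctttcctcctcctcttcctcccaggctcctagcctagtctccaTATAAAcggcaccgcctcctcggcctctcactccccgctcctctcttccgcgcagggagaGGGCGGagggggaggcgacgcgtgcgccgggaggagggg

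All 4 windows were rich in G and C, at 65.2% to 70.8% over 250 bases, against a median of 52.4% over the 32851 promoters of the table. Each held at least 1 GC box, a motif found in 32.7% of all windows. Prph and Map1b held the TATA box letters, found in 12.4% of windows. Ina held an E box of these letters (13% of windows), Tubb3 held a CCAAT box beyond the bases printed (33.8%), and none of the 4 held the response element TGACGTCA (1.55%). These matches describe letters only.

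Per unit of gene length, Nefl was the most abundant neurofilament transcript. On the deposited FPKM scale (fragments scaled by listed gene length and library total), Nefl stood at 75.5 ± 5.70 FPKM (SD, n = 8 libraries), a higher mean level than 97.6% of tested genes. Tubb3 followed at 59.7 ± 12.6 and Map1b at 58.0 ± 15.9 FPKM. Next came Ina at 35.9 ± 1.24, Mapt at 29.5 ± 1.62, Nefh at 24.6 ± 1.38 and Gap43 at 24.5 ± 7.74 FPKM. Nefm at 18.1 ± 1.85, Stmn2 at 13.1 ± 2.87 and Prph at 2.76 ± 1.28 FPKM (SD, n = 8 libraries) closed the order, Prph with a higher mean than 35.1% of tested genes. Of neighbours in this order, the mean ± SD ranges overlapped between Nefl and Tubb3, Tubb3 and Map1b, Nefh and Gap43, and Gap43 and Nefm.

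The order depends on the length used. The listed length joins all exons of a gene, which gives Stmn2 5602 bases although its protein-coding transcript has 2073, and gives Nefm 5782 bases against 3680 in its longest protein-coding transcript. Counted per kilobase of the longest protein-coding transcript, Map1b stood at 79.3 ± 21.6 and Nefl at 77.1 ± 6.03 CPM per kilobase (SD, n = 8 libraries), ranges that overlapped. Stmn2 stood at 36.2 ± 8.07, beside Ina at 36.6 ± 1.20, and the ranges of Nefm at 28.9 ± 2.87 and Nefh at 25.1 ± 1.39 overlapped. Nefl remained the highest of the filament genes and Prph, at 3.03 ± 1.41, the lowest of the 10 genes on both scales.

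Between sIVs and PBS retinas, no axon cytoskeleton gene passed the test. By the quasi-likelihood test of edgeR with Benjamini-Hochberg adjustment, 0 of the 10 genes passed the 0.05 threshold, 0 had an unadjusted p under 0.05, and 6 lay higher and 4 lower in sIVs retinas. Across the 17004 genes tested the share called was 0%; 255 genes had an unadjusted p under 0.05 in edgeR, 322 in DESeq2 and 455 in limma-voom with sample quality weights, and these tools also called 0. The median log2 fold change was 0.02 over the 10 genes and 0.01 over all genes. For 9 of the 10 genes the approximate 95% interval stayed within a 2-fold difference in either direction, and for 5 (Nefl, Nefm, Nefh, Ina and Mapt) within 1.5-fold. The sIVs and PBS libraries overlapped for all 10 genes; over all genes they did not overlap for 2.01%, with every sIVs library above every PBS library for 1.08% and below for 0.929%.

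**Figure D1:**
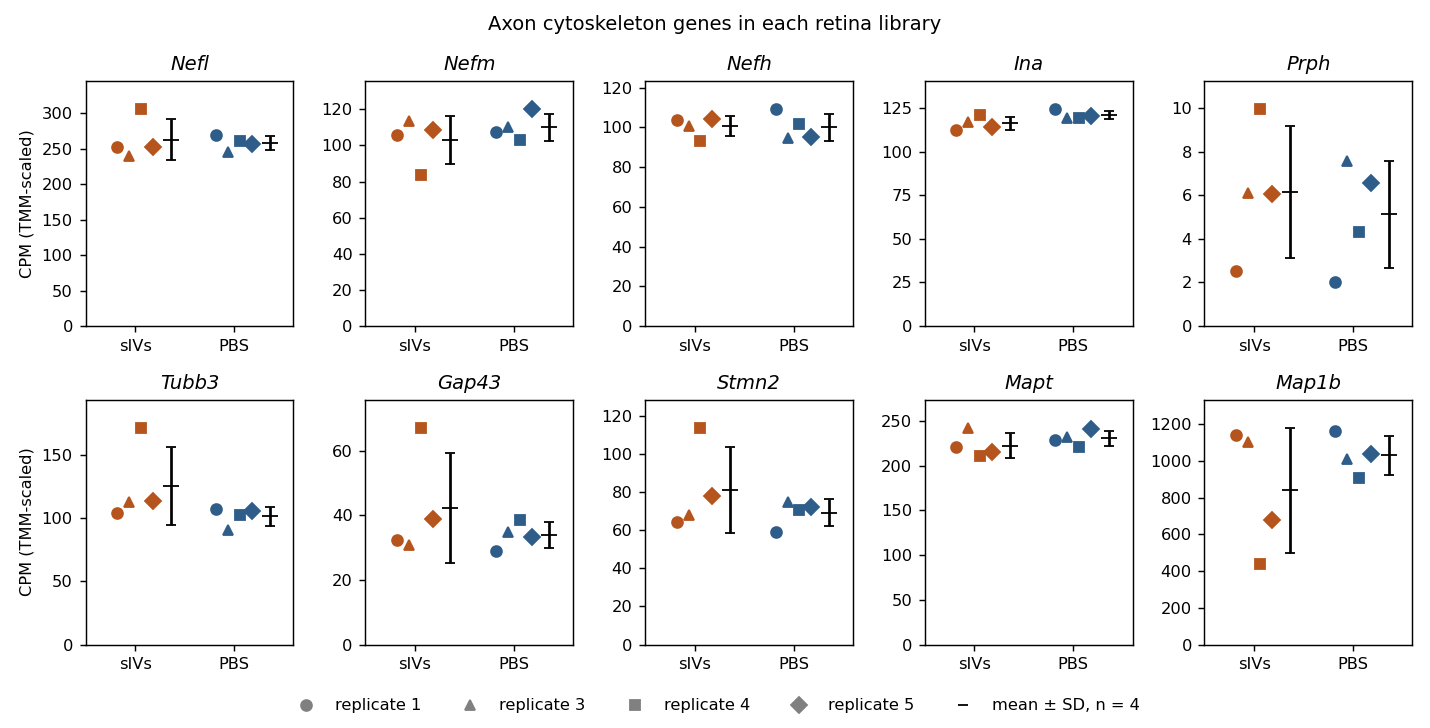
Level of each of the 10 genes in each library, in TMM-scaled CPM on axes that start at 0; sIVs libraries are left (orange) and PBS libraries right (blue), symbols give the replicate number, and black bars give mean ± SD (n = 4). sIVs replicate 4 (square) is the highest point for Nefl, Prph, Tubb3, Gap43 and Stmn2 and the lowest for Nefm, Nefh, Mapt and Map1b.

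Nefl encodes the light chain, the subunit on which neurofilaments are built (chromosome 14, 68083863 to 68089095, mm10). It had 253, 240, 306 and 252 CPM in sIVs replicates 1, 3, 4 and 5, against 270, 246, 261 and 257 CPM in PBS replicates 1, 3, 4 and 5. The sIVs range enclosed the PBS range, with sIVs replicate 4 highest of all. Group means were 263 ± 29.3 CPM in sIVs and 258 ± 10.0 CPM in PBS retinas (SD, n = 4 each), a log2 fold change of 0.02 ± 0.11 (SE; edgeR adjusted p = 0.945). Its interval of -0.22 to 0.26 corresponds to 0.861- to 1.20-fold, and without sIVs replicate 4 the log2 fold change was -0.06.

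Nefm encodes the medium chain (chromosome 14, 68082590 to 68124846). Its libraries held 106, 113, 83.7 and 108 CPM in sIVs replicates 1, 3, 4 and 5, against 107, 110.0, 103 and 120.1 CPM in PBS replicates 1, 3, 4 and 5. Here sIVs replicate 4 was the lowest of all 8, and the other 3 sIVs libraries lay within the PBS range. The log2 fold change was -0.10 ± 0.12 (SE; edgeR adjusted p = 0.818), and -0.01 without sIVs replicate 4.

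Nefh, the heavy chain gene (chromosome 11, 4938754 to 4948064), encodes the subunit with a long phosphorylated tail. It stood at 104, 101, 93.4 and 104 CPM in sIVs replicates 1, 3, 4 and 5, against 109, 94.7, 102 and 95 CPM in PBS replicates 1, 3, 4 and 5. The groups overlapped over most of their ranges, and the means were 101 ± 5.03 CPM in sIVs and 100.1 ± 6.85 CPM in PBS retinas (SD, n = 4 each). The log2 fold change was 0.01 ± 0.09 (SE; edgeR adjusted p = 0.985), the smallest of the 10 in size, and 0.04 without sIVs replicate 4.

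Ina encodes alpha-internexin, the filament subunit of central neurons (chromosome 19, 47014698 to 47025327). Its levels were 113, 117, 121 and 114 CPM in sIVs replicates 1, 3, 4 and 5, against 124, 119, 119 and 121 CPM in PBS replicates 1, 3, 4 and 5. Only sIVs replicate 4 reached into the PBS range. Group means were 116 ± 3.89 CPM in sIVs and 121 ± 2.35 CPM in PBS retinas (SD, n = 4 each), a log2 fold change of -0.06 ± 0.08 (SE; edgeR adjusted p = 0.836), and -0.08 without sIVs replicate 4. Ina was also the steadiest gene of the set, its highest library being 1.10-fold its lowest.

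Prph encodes peripherin (chromosome 15, 99055174 to 99058978), a filament protein of peripheral and some central neurons, and not the photoreceptor disc protein peripherin-2, which Prph2 encodes. It stood at 2.51, 6.11, 9.95 and 6.05 CPM in sIVs replicates 1, 3, 4 and 5, against 2.04, 7.58, 4.30 and 6.56 CPM in PBS replicates 1, 3, 4 and 5. The library numbered 1 was the lowest of each group, and the highest library was 4.88-fold the lowest. The log2 fold change was 0.26 ± 0.47 (SE; edgeR adjusted p = 0.863), with an interval of 0.579- to 2.48-fold, and -0.07 without sIVs replicate 4. With 27 counts in its lowest library, counting error alone was 19.2% there, against at most 5.11% for the other 9 genes. Schwann cell and peripheral nerve markers summed to 20.1 to 38.2 CPM in sIVs and 18 to 32.7 CPM in PBS retinas, lowest in replicate 1 of each group and highest in sIVs replicate 4; 4 of 5 were tested. Their part in the Prph values was not tested.

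The filament transcripts kept similar proportions in 7 libraries, apart from the low Prph share. Of the summed FPKM of Nefl, Nefm, Nefh, Ina and Prph, Nefl took 48.6% ± 3.10 in sIVs and 47.6% ± 0.901 in PBS retinas (SD, n = 4 each). Ina took 22.5% ± 0.594 in sIVs and 23.3% ± 0.251 in PBS, Nefh 15.8% ± 1.43 in sIVs and 15.6% ± 0.805 in PBS, and Nefm 11.2% ± 1.86 in sIVs and 11.9% ± 0.83 in PBS retinas (SD, n = 4 each). In sIVs replicate 4 the share of Nefl was 53.0% and that of Nefm 8.48%, while in the other 7 libraries they ranged over 45.8% to 48.4% and 11.2% to 12.9%. The ratio of Nefl to Nefm CPM was 3.65 in sIVs replicate 4, against 2.12 to 2.54 in the other 7 libraries. Summed FPKM of the 5 genes was 156 ± 6.76 in sIVs and 158 ± 3.79 in PBS retinas (SD, n = 4 each).

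**Figure D2:**
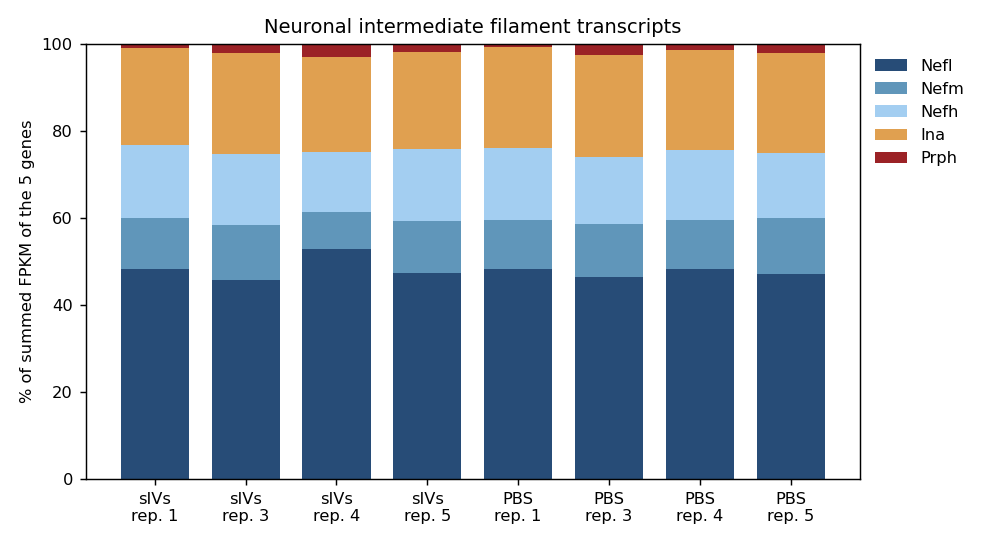
Share of each neuronal intermediate filament gene in the summed FPKM of the 5 genes, in percent, for each library, with sIVs libraries left and PBS libraries right. The largest Nefl share and the smallest Nefm share are in sIVs replicate 4, where Nefl takes 53.0% and Nefm 8.48%.

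Tubb3 encodes the neuronal beta-tubulin (chromosome 8, 123411424 to 123422015) and had the smallest p of the 10 genes. It stood at 104, 113, 172 and 114 CPM in sIVs replicates 1, 3, 4 and 5, against 107, 90.7, 102 and 106 CPM in PBS replicates 1, 3, 4 and 5. Of the sIVs libraries, 3 lay above all PBS libraries, and replicate 1 lay within the PBS range. The log2 fold change was 0.31 ± 0.16 (SE; edgeR adjusted p = 0.81, unadjusted 0.0865), an interval of 0.963- to 1.59-fold. Without sIVs replicate 4 it was 0.12 ± 0.08 (SE; edgeR adjusted p = 0.9996).

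Gap43 encodes a membrane protein of growth cones and regenerating axons (chromosome 16, 42248442 to 42340651). Its levels were 32.5, 30.8, 67.2 and 38.8 CPM in sIVs replicates 1, 3, 4 and 5, against 29.0, 34.9, 38.6 and 33.5 CPM in PBS replicates 1, 3, 4 and 5. Apart from sIVs replicate 4 the groups covered nearly the same range. Means were 42.3 ± 17.0 CPM in sIVs and 34.0 ± 3.98 CPM in PBS retinas (SD, n = 4 each), a log2 fold change of 0.32 ± 0.24 (SE; edgeR adjusted p = 0.81), and 0.0008 without sIVs replicate 4.

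Stmn2 encodes stathmin-2, a tubulin-binding protein of growing axons (chromosome 3, 8509360 to 8561606). It stood at 64.0, 68.0, 114 and 77.7 CPM in sIVs replicates 1, 3, 4 and 5, against 58.8, 74.7, 70.6 and 72.2 CPM in PBS replicates 1, 3, 4 and 5. Here too sIVs replicate 4 lay far above the other libraries, and replicate 1 was the lowest of each group. The log2 fold change was 0.23 ± 0.18 (SE; edgeR adjusted p = 0.81), and 0.02 without sIVs replicate 4.

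Mapt encodes tau, the microtubule-binding protein of axons (chromosome 11, 104231390 to 104332090). It stood at 221, 242, 211 and 215 CPM in sIVs replicates 1, 3, 4 and 5, against 228, 232, 220 and 241 CPM in PBS replicates 1, 3, 4 and 5. The ranges overlapped, and the highest library was 1.15-fold the lowest. The log2 fold change was -0.05 ± 0.09 (SE; edgeR adjusted p = 0.862), and -0.03 without sIVs replicate 4.

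Map1b encodes a large microtubule-associated protein prominent in growing axons (chromosome 13, 99421446 to 99516540). Its levels were 1144, 1104, 439 and 677 CPM in sIVs replicates 1, 3, 4 and 5, against 1165, 1013, 909 and 1038 CPM in PBS replicates 1, 3, 4 and 5. Both sIVs replicates 4 and 5 lay below all PBS libraries, whereas sIVs replicates 1 and 3 lay within the PBS range. The means were 841 ± 341 CPM in sIVs and 1031 ± 105 CPM in PBS retinas (SD, n = 4 each), a log2 fold change of -0.29 ± 0.28 (SE; edgeR adjusted p = 0.81). Without sIVs replicate 4 it was -0.08 ± 0.18 (SE; edgeR adjusted p = 0.9996).

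**Figure D3:**
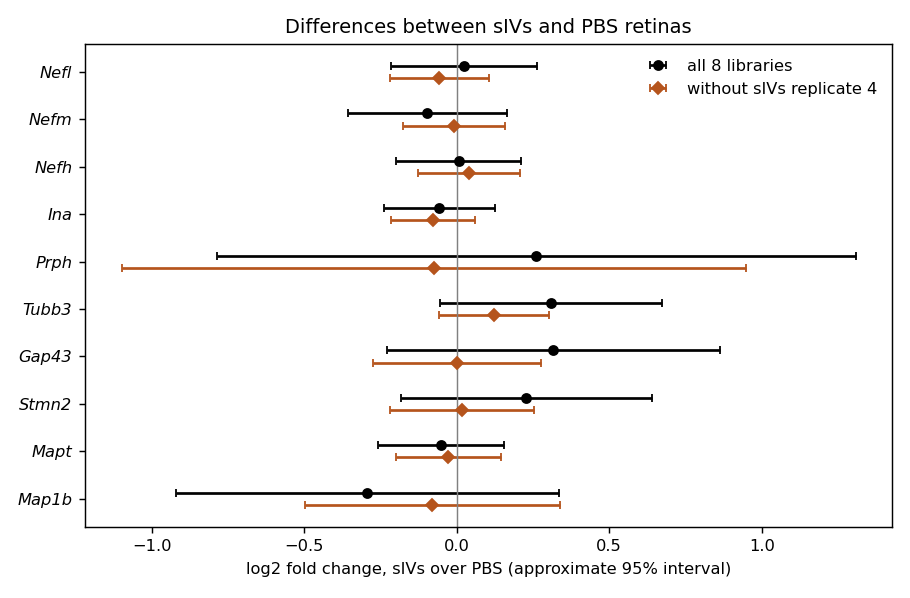
Log2 fold change of each gene, sIVs over PBS, from edgeR with all 8 libraries (black circles) and without sIVs replicate 4 (orange diamonds); bars are approximate 95% intervals. Every interval includes 0, and the values of Tubb3, Gap43, Stmn2 and Map1b lie closer to 0 without that library.

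Spread between libraries separated the 10 genes. The biological coefficient of variation estimated by edgeR, the spread beyond counting error, was 0.115 for Ina, 0.122 for Nefh, 0.124 for Mapt, 0.134 for Nefl and 0.141 for Nefm, against a median of 0.217 over all tested genes. It was 0.179 for Tubb3, 0.198 for Stmn2, 0.253 for Gap43, 0.281 for Map1b and 0.462 for Prph. The 7 genes other than Gap43, Map1b and Prph were thus below that median.

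The deviation of sIVs replicate 4 ranked with transcript length. That library was the highest of the 8 for 5 of the 10 genes and the lowest for 4, where 35.7% and 35.4% of all tested genes were so placed. Relative to the mean log2 CPM of the other 7 libraries, it lay higher by 0.99 for Gap43, 1.10 for Prph, 0.71 for Tubb3 and 0.72 for Stmn2, whose longest protein-coding transcripts have 1420, 1863, 1868 and 2073 bases. The difference was 0.04 for Ina (3240 bases), 0.27 for Nefl (3380), -0.39 for Nefm (3680), -0.12 for Nefh (3994) and -0.12 for Mapt (5253 bases). For Map1b, the longest at 11808 bases, it was -1.18. Across the 10 genes, which are not independent replicates, Spearman's rank correlation between this difference and transcript length was -0.92, and -0.77 with the listed gene length.

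Over all tested genes that library was also higher for short than for long genes. Its median deviation from the mean log2 CPM of the 8 libraries was 0.43 for 1240 genes listed at up to 1000 bases, 0.59 for 2212 genes listed at 1000 to 2000 bases, 0.26 for 5165 genes up to 4000, -0.13 for 5779 genes up to 8000 and -0.51 for 2608 longer genes. For those longest genes sIVs replicate 5 lay at -0.07 and the other 6 libraries between 0.04 and 0.13. The median log2 fold change between the groups was 0.19 for genes of up to 1000 bases, 0.24 at 1000 to 2000 bases and -0.16 above 8000 bases. With the trend on listed gene length removed within each library, a setting chosen after seeing the data, the log2 fold change was 0.19 for Tubb3, 0.18 for Gap43, 0.31 for Stmn2 and -0.11 for Map1b, and 0 of the 10 genes passed. Stmn2 entered that setting at its listed 5602 bases, although its protein-coding transcript has 2073, so its value there does not allow for its transcript length. The pigment epithelium and melanocyte markers, of which 8 of 11 were tested and 7 of those lay higher in sIVs retinas, summed to 13.1 to 458 CPM in sIVs and 12.0 to 68.7 CPM in PBS retinas. Their median log2 fold change was 1.39, against 0.11 without sIVs replicate 4, when 5 of 8 lay higher; with quality weights, or without both sIVs replicate 4 and PBS replicate 1, 1 of 8 lay higher. No marker of that list was at 0 in all libraries, and the part of these markers in the values of the 10 genes was not tested.

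**Figure D4:**
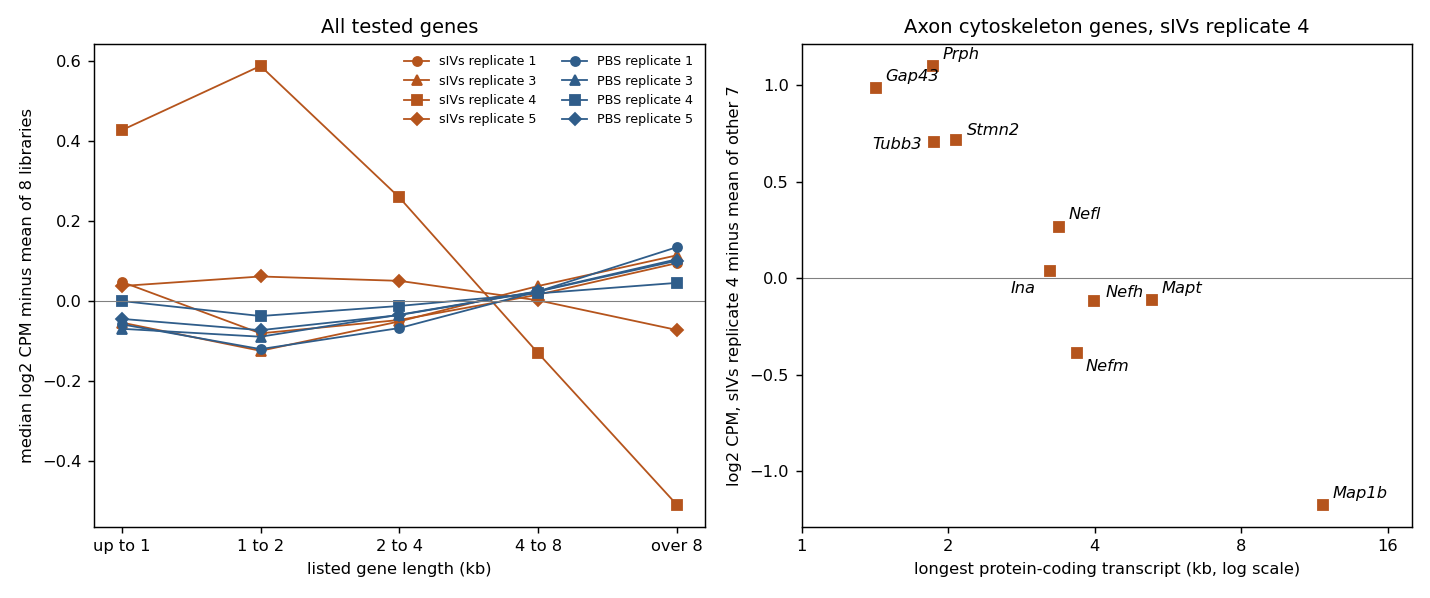
Left, median deviation of each library from the mean log2 CPM of the 8 libraries, by class of listed gene length, over all tested genes (orange, sIVs; blue, PBS; symbols, replicate number). Right, log2 CPM of sIVs replicate 4 minus the mean of the other 7 libraries for each of the 10 genes against the length of its longest protein-coding transcript on a log axis; the values run from 0.99 for the shortest, Gap43, to -1.18 for the longest, Map1b.

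Other genes of the axon cytoskeleton were set beside these 10 in 7 lists with 116 genes, of which 111 were tested. None passed in edgeR: 0 of 111 had an adjusted p under 0.05, against 0% of all tested genes, 0 had an unadjusted p under 0.05, and DESeq2 and limma-voom also called 0 of them. Of the 111 genes, 49 lay higher and 62 lower in sIVs retinas, with a median log2 fold change of -0.03. The 2 lists farthest from 0 were the tubulins and the spectrin, ankyrin and initial segment genes.

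The 12 tubulin genes, all listed at up to 4000 bases, had a median log2 fold change of 0.19, with 11 higher and 1 lower. Tuba1c and Tuba1b, which encode alpha-tubulins, had the smallest p. Tuba1c stood at 23.9 ± 7.23 CPM in sIVs and 16.6 ± 3.89 CPM in PBS retinas, and Tuba1b at 589 ± 247 CPM in sIVs and 440 ± 19.6 CPM in PBS retinas (SD, n = 4 each). Their log2 fold changes were 0.52 ± 0.24 and 0.42 ± 0.24 (SE; edgeR adjusted p = 0.81 for both), and Tuba1b held 955 CPM in sIVs replicate 4 against 417 to 516 in the other 7 libraries. The tubulin list had a median of -0.0033 without sIVs replicate 4, with 6 genes on each side, and 0.12 with the length trend removed, with 10 higher and 2 lower. Tubulin genes resemble each other, but among tubulins shared sequence was measured for Tubb3 only. How far reads of these 12 genes can be told apart was not tested.

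The 16 genes of spectrin, ankyrin and the axon initial segment, the membrane skeleton at which action potentials start, had a median of -0.31, with 1 higher and 15 lower. Of these genes, 15 are listed at more than 8000 bases. Scn2a, a sodium channel gene, stood at 47.6 ± 16.6 CPM in sIVs and 65.7 ± 5.99 CPM in PBS retinas (SD, n = 4 each; log2 fold change -0.46 ± 0.24 SE; edgeR adjusted p = 0.81). Nrcam, an adhesion molecule gene of that segment, had a log2 fold change of -0.36 ± 0.20 (SE). The list summed to 2314 CPM in sIVs replicate 4, 3358 in sIVs replicate 5 and 4049 to 4574 in the other 6 libraries. Without sIVs replicate 4 its median was -0.13, with 2 higher and 14 lower, and with the length trend removed it was -0.10, with 4 higher and 12 lower.

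Among 25 microtubule-associated and stathmin genes, 10 lay higher and 15 lower, with a median of -0.04. Without sIVs replicate 4 the median was -0.02, again with 10 higher and 15 lower, and with the length trend removed it was 0.08, with 19 higher and 6 lower. Stmn3, a stathmin gene listed at 1136 bases, and Map1a, a relative of Map1b listed at 12166 bases, had the smallest p, with log2 fold changes of 0.57 ± 0.31 and -0.42 ± 0.24 (SE; edgeR adjusted p = 0.81 for both). In sIVs replicate 4 Stmn3 stood at 341 CPM and Map1a at 92.8 CPM, against 102 to 154 CPM and 145 to 252 CPM in the other 7 libraries. The 18 axonal motors and adaptors had a median of -0.09, with 6 higher and 12 lower. It was -0.04 without sIVs replicate 4, again with 6 higher and 12 lower, and -0.0069 with the length trend removed, with 9 on each side. Kif5a and Kif5c, kinesin heavy chain genes, had log2 fold changes of -0.26 ± 0.18 and -0.18 ± 0.13 (SE; edgeR adjusted p = 0.81 for both).

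The 14 growth cone and adhesion genes had a median of -0.05, with 6 higher and 8 lower. Without sIVs replicate 4 it was -0.0073, with 3 higher and 11 lower, and with the length trend removed 0.07, with 9 higher and 5 lower. Cntn2, an axonal adhesion gene, stood at 18 ± 4.06 CPM in sIVs and 23.1 ± 1.44 CPM in PBS retinas (SD, n = 4 each; log2 fold change -0.36 ± 0.17 SE), and Marcks, an actin-binding substrate of protein kinase C, had a log2 fold change of 0.20 ± 0.15 (SE; edgeR adjusted p = 0.81 for both). Of 16 genes in the list of kinases and phosphatases of neurofilaments and tau, 9 lay higher and 7 lower (median 0.03). The list had 8 on each side without sIVs replicate 4 (median -0.0033), and with the length trend removed 12 higher and 4 lower (median 0.11). Gsk3b, a tau kinase gene, had a log2 fold change of -0.23 ± 0.14 (SE; edgeR adjusted p = 0.81). Of 10 tested genes of other intermediate filaments, 6 lay higher and 4 lower (median 0.05). There were 5 on each side without sIVs replicate 4 (median -0.01), and with the length trend removed 6 higher and 4 lower (median 0.13). The keratin gene Krt18 had a log2 fold change of 0.41 ± 0.20, and the synemin gene Synm one of -0.27 ± 0.21 (SE; edgeR adjusted p = 0.81 for both).

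**Figure D5:**
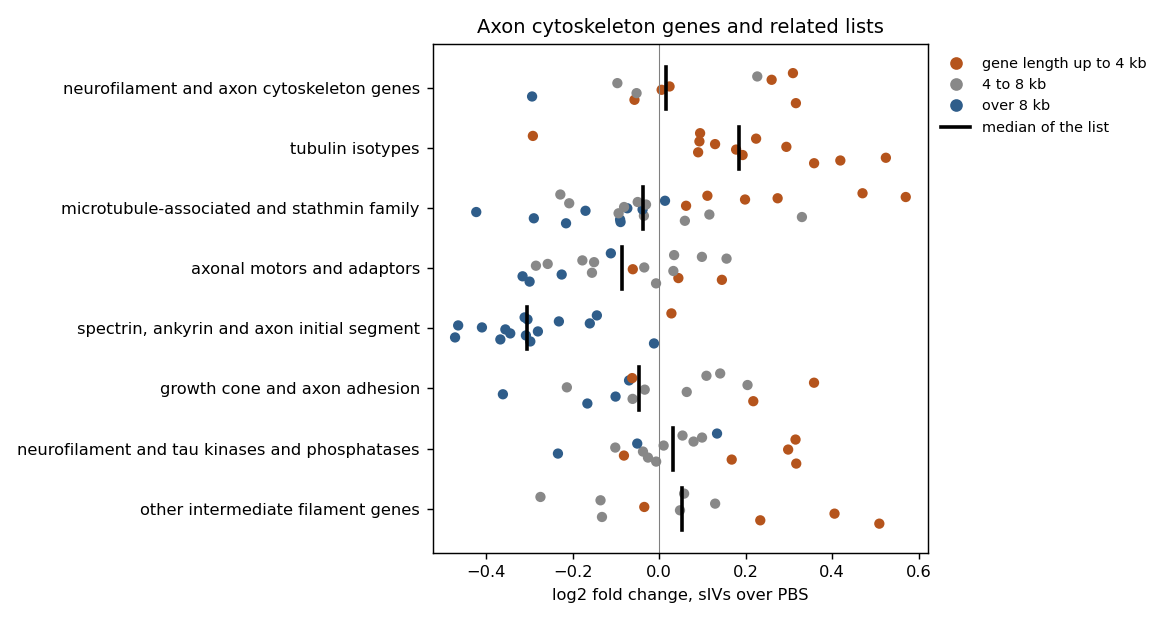
Log2 fold change, sIVs over PBS, of the 10 genes and of each tested gene in 7 related lists, coloured by listed gene length (orange, up to 4 kb; grey, 4 to 8 kb; blue, over 8 kb); black lines are list medians. The tubulin median is 0.19 and the spectrin, ankyrin and initial segment median -0.31.

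Length ordered the listed genes in sIVs replicate 4 as it did the 10 genes. Relative to the other 7 libraries, 30 of 34 listed genes of up to 4000 bases lay higher in that library, with a median log2 difference of 0.56. Of 42 genes of 4000 to 8000 bases 20 lay higher (median -0.03), and of 35 longer genes 1 lay higher (median -0.80).

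The mean profile of Nefl, Nefm and Nefh was nearly flat, its centred log2 CPM running between -0.07 in sIVs replicate 4 and 0.06 in PBS replicate 1. It averages genes that lay on opposite sides in sIVs replicate 4, where Nefl deviated by 0.23 and Nefm by -0.34 from their means over the 8 libraries. From this mean profile Nefl and Nefm themselves differed by 0.12 each, with 1782 and 1875 candidate genes closer, and Nefh by 0.05. Among 10451 protein-coding genes at a mean of at least 10 CPM, the closest profiles by root mean square difference over the 8 libraries were Pik3c3, Cry2, Cdk5r1, Utp6 and Ap2a1, at 0.01 to 0.03 on the log2 scale. Cdk5r1, which encodes an activator of the neuronal kinase Cdk5, stood at 111 ± 3.09 CPM in sIVs and 112 ± 4.37 CPM in PBS retinas (SD, n = 4 each). The median candidate differed by 0.21. Of the other 7 genes of the set, Ina differed from the mean profile by 0.06 and Mapt by 0.06, Tubb3 by 0.27, Stmn2 by 0.30, Gap43 by 0.38, Map1b by 0.43 and Prph by 0.74.

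Markers of other cells that a dissected retina can hold varied beside these genes. Horizontal cell markers summed to 161 to 222 CPM in sIVs and 164 to 182 CPM in PBS retinas. The 222 CPM was in sIVs replicate 4, where Calb1 (133 CPM) and Tmem215 were the highest of the 8 libraries. Onecut1, Onecut2 and Lhx1 were the lowest of the 8 libraries there. Amacrine markers summed to 1640 to 1769 CPM in sIVs and 1712 to 1832 CPM in PBS retinas. Markers of oligodendrocytes and myelinated optic nerve summed to 42.3 to 79.7 CPM in sIVs and 41.0 to 60.6 CPM in PBS retinas, highest in sIVs replicate 4, and 4 of the 5 tested lay higher in sIVs retinas, against 2 of 5 without that library. Ermn reached 4.13 CPM there, against at most 1.03 in the other libraries, and Mobp 0.851 CPM, against at most 0.0579; Mal and Cnp were also highest there. Mog reached at most 1.07 CPM in sIVs and 1.14 CPM in PBS libraries, and Opalin at most 0.0710 CPM in sIVs and 0.116 CPM in PBS libraries. Mueller glia (5001 to 7044 CPM in sIVs, 4745 to 6162 CPM in PBS), microglia (121 to 258 CPM in sIVs, 39.6 to 179 CPM in PBS) and lens markers (41.8 to 148 CPM in sIVs, 27.6 to 83.9 CPM in PBS) had their highest sums in sIVs replicate 4. Single genes carried much of these sums: Cryab held 142 CPM of the lens sum there, with Cryaa and Mip at 0, and Apoe held 2063 CPM of the Mueller glia sum, with Kcnj10 (72.9 CPM) and Slc1a3 (200.7 CPM) at their lowest of the 8 libraries. Of the microglia list C1qa (87.6 CPM), C1qb (55.3 CPM), Ctss, Aif1 and Tmem119 were highest in sIVs replicate 4. Csf1r, Cx3cr1 and P2ry12 were not, each being higher in sIVs replicate 5. Muscle and connective tissue markers summed to 17.4 to 59.1 CPM in sIVs and 16.4 to 50.1 CPM in PBS retinas, highest in replicate 5 of each group. The collagen genes Col1a1, Col1a2 and Col3a1 were highest in those 2 libraries, whereas the muscle gene Ckm was the lowest of its group in both. The part of these cells in the values of the 10 genes was not tested.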

How the data were processed

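Libraries were poly(A)-selected and strand-marking, with 150 bp paired-end reads, per the labels' protocols. The authors deposited raw counts per gene and FPKM values; reads were placed on mm10, according to the submitters' processing notes, and the sources used here name no aligner or counter. Sample titles gave group and replicate. Genes were kept with filterByExpr (17004 of 54532), scaled with TMM and fitted on group alone in edgeR 4.0.16 under R 4.3.3 (glmQLFTest, two-sided); p-values were adjusted by Benjamini and Hochberg over all tested genes, at 0.05. Standard errors were the absolute log2 fold change over the square root of F, so they and the 95% intervals are approximate. Log2 CPM used a prior count of 2. DESeq2 1.42.0, limma 3.58.1 and the other settings named at the end were alternatives. Only the edgeR fit was tried on simulated counts. Depth was 13803958 to 16622259 counts, and intervals cover the spread between libraries. Transcripts and overlaps came from GENCODE M21, in which 53585 of 54495 shared genes had the deposited start and end. Genes named beyond the 10 were the 2 of smallest p in each list and the 5 of closest profile to Nefl, Nefm and Nefh. Some items these rules take are not reported here. The 10 genes and all lists were chosen with earlier results of these data known. A listed marker whose symbol was not found once (Sept4) was left out.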

Additional observations from a re-analysis of the deposited data

Results flagged for a closer look

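Among 56 sets of 4 libraries (the 10 genes, 7 related lists and 11 marker lists, in each group), 5 had a library far from the other 3 by Dixon's test at the 95% level; chance gives about 1 in 20. Tubb3 stood at 172 CPM in sIVs replicate 4, above the other sIVs libraries. The same library was apart in the summed level of kinase and phosphatase genes of neurofilaments and tau, at 2551 CPM. It was also apart for pigment epithelium and melanocyte genes, at 458 CPM, although Tyr, Tyrp1, Pmel and Mlana were higher in sIVs replicate 5. Muscle and connective tissue genes summed to 59.1 CPM in sIVs replicate 5 and 50.1 CPM in PBS replicate 5, each apart from the other libraries of its group. The collagen genes Col1a1, Col1a2 and Col3a1 were the highest of each group there, Col1a2 at 27.4 and 26.5 CPM. The muscle genes were not, with Acta1 at 4.47 and 3.73 CPM and Ckm at 0.894 and 0.903 CPM. The part of these lists in the values of the 10 axon cytoskeleton genes was not tested.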

How the results depend on the processing

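Under the 17 alternatives, 0 genes, 0 of the 10 axon cytoskeleton genes and 0 listed axon genes passed, with 120 to 927 genes at an unadjusted p under 0.05; the lowest adjusted p of any of the 10 genes was 0.571. Of 170 log2 fold changes of the 10 genes, 152 kept their direction and 18 did not.

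With limma-voom quality weights, in which sIVs replicate 4 weighed 0.0913, the log2 fold change was -0.042 for Nefl, -0.226 for Prph, -0.066 for Gap43 and -0.035 for Stmn2. Without both sIVs replicate 4 and PBS replicate 1 it was -0.039 for Nefl, -0.336 for Prph, -0.072 for Gap43 and -0.056 for Stmn2. On log2(FPKM + 1) and log2(FPKM + 0.1) Nefh was at -0.0027 and -0.0028. With the length trend removed, Nefl was at -0.011 and Mapt at 0.066. Leaving out each library in turn gave -0.057 to 0.065 for Nefl, -0.020 to 0.050 for Nefh and -0.075 to 0.519 for Prph, and the direction held for the other 7 genes. The cause was not tested.

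Deviations of same-numbered libraries correlated at 0.60, 0.02, 0.23 and 0.51 for replicates 1, 3, 4 and 5. The library sIVs replicate 3 correlated best with PBS replicate 1, and the other sIVs libraries with their own number. The labels do not state pairs, so the main fit did not take the numbers as pairs. Whether same-numbered libraries share a source was not tested. The fit with the replicate block called 0 genes, with 588 at an unadjusted p under 0.05, and changed no direction among the 10 genes (Map1b -0.39, Tubb3 0.28). Depth limits Prph most, at 27 counts in its lowest library.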
